A study of Chlamydomonas reinhardtii with 31 samples.

Results

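The 9 genes described here encode the hydrogenases of the green alga Chlamydomonas reinhardtii, the proteins that assemble them and enzymes of fermentative metabolism. They were taken from a fixed list of loci and make up 9 of the 17301 genes in the deposited table; every listed locus was found. The hydrogenase genes are HYDA1 (Cre03.g199800) and HYDA2 (Cre09.g396600), and the assembly genes are HYDEF (Cre06.g296750) and HYDG (Cre06.g296700). The fermentation genes are PFL1 (Cre01.g044800), PAT2 (Cre09.g396650), ACK1 (Cre09.g396700) and ACK2 (Cre17.g709850), and HCP4 (Cre09.g391450) completes the list. These names come from the list itself, because neither the table nor the reference annotation gives a symbol for the loci. The genes were chosen by a rule that used measured FPKM values, since it names the strong fall of HYDG within 2 h of nitrogen removal in both strains of the first library set. Changes from 0 h in that set are therefore described without a test.

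Chlamydomonas cells without oxygen regenerate their electron carriers by fermentation. In the chloroplast the iron hydrogenases HYDA1 and HYDA2 take electrons from ferredoxin and release hydrogen gas, and the radical SAM proteins HYDEF and HYDG build part of their metal active site. Pyruvate formate lyase (PFL1) splits pyruvate into formate and acetyl-CoA. A phosphate acetyltransferase and an acetate kinase together turn acetyl-CoA into acetate with a gain of ATP. PAT2 is of the first kind, and ACK1 and ACK2 are of the second. HCP4 is a hybrid cluster protein, of a family whose bacterial members reduce hydroxylamine or nitric oxide. The genes are best known for transcripts that accumulate in dark cultures without oxygen; the cultures here were grown in the light.

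RNA was sequenced from cultures that had been grown in TAP, a medium containing acetate, then washed and moved to TAP lacking ammonium chloride. The first library set held CC-4349 and the starchless mutant sta6 (CC-4348) at 0, 0.5, 2, 4, 8, 12, 24 and 48 h, 16 samples in all. The second set of 15 samples held both strains and the strains STA6-C2 (CC-4565), STA6-C4 (CC-4566) and STA6-C6 (CC-4567), at 0.5, 4 and 48 h. The last are labelled STA6 and called rescued strains here. They were taken as strains of the sta6 background with STA6 restored. Each combination of strain, time and set was a single sample, so p-values rest on the variation among single samples, which may be technical in part, and a strain cannot be told apart from its one culture series. All samples, those of 0 h included, carry the label of nitrogen withdrawal, and no culture kept on ammonium was analysed here.

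Levels are FPKM, reads per length of gene and depth of library, so a lower share of the RNA pool and less RNA per cell cannot be told apart. The gene Cre03.g188250, taken as the STA6 locus, separated the strains as labelled. It was at no more than 2.55 FPKM in any sta6 library and at least 98.2 FPKM in every other library. For all 9 genes every deposited value could be written as a whole number of reads, which gave the reads behind it. Per column these ran from 878 to 50026 for PFL1, from 1 to 2630 for HYDEF, from 1 to 9988 for HYDG and from 0 to 1115 for HCP4. Relative to the median column, depth per column was 0.221 to 0.699 in first-set CC-4349, 0.508 to 2.02 in first-set sta6 and 1 to 2.82 in the second set. First-set CC-4349 was quantified differently, since the FPKM worth of 1 read relative to first-set sta6 varied between genes from -0.07 to 0.65 around the median gene on the log2 scale (95% of 402 low genes). For 8 of the 9 genes this ratio lay between -0.02 and 0.03, and for HCP4 it was 0.15.

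The sets gave different levels for the same strain and time, most of all in CC-4349. HYDG in CC-4349 was at 15.1, 0.336 and 0.916 FPKM at 0.5, 4 and 48 h in the first set and at 32.3, 38.9 and 46.7 FPKM in the second. HYDEF in CC-4349 was at 0.56, 0.0744 and 0.379 FPKM in the first set and at 2.77, 4.50 and 3.70 FPKM in the second. These were the 2 genes of the 9 that were higher in second-set CC-4349 by more than 1 (log2) at all 3 shared times, a condition met by 2.55% of all genes, and none was lower by that margin (4.38%). In sta6 none of the 9 met it in either direction (0.175% higher, 0.454% lower). HYDA1 in sta6 at 0.5 h was nevertheless at 150.5 FPKM in the first set and 39.4 FPKM in the second. Time courses and strain differences are therefore given per set.

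At 0 h of the first set the 9 transcripts were present in both strains. The log2 difference, sta6 minus CC-4349, ran from -0.63 (ACK1) to 0.55 (ACK2), with 1 sample per strain. HYDA1, HYDEF, HYDG, HCP4 and, by the least, PFL1 were lower at every first-set time from 2 h on. HYDA2 was lower at first and returned towards its starting level. PFL1 had the highest 0 h level, 853.6 FPKM in CC-4349 and 859.9 FPKM in sta6. HYDA1 followed at 316 and 319.6 FPKM, then HYDG at 153 and 173 FPKM. The remaining 6 genes lay between 8.72 FPKM (ACK2 in CC-4349) and 70.7 FPKM (HYDA2 in CC-4349).

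**Figure D1:**
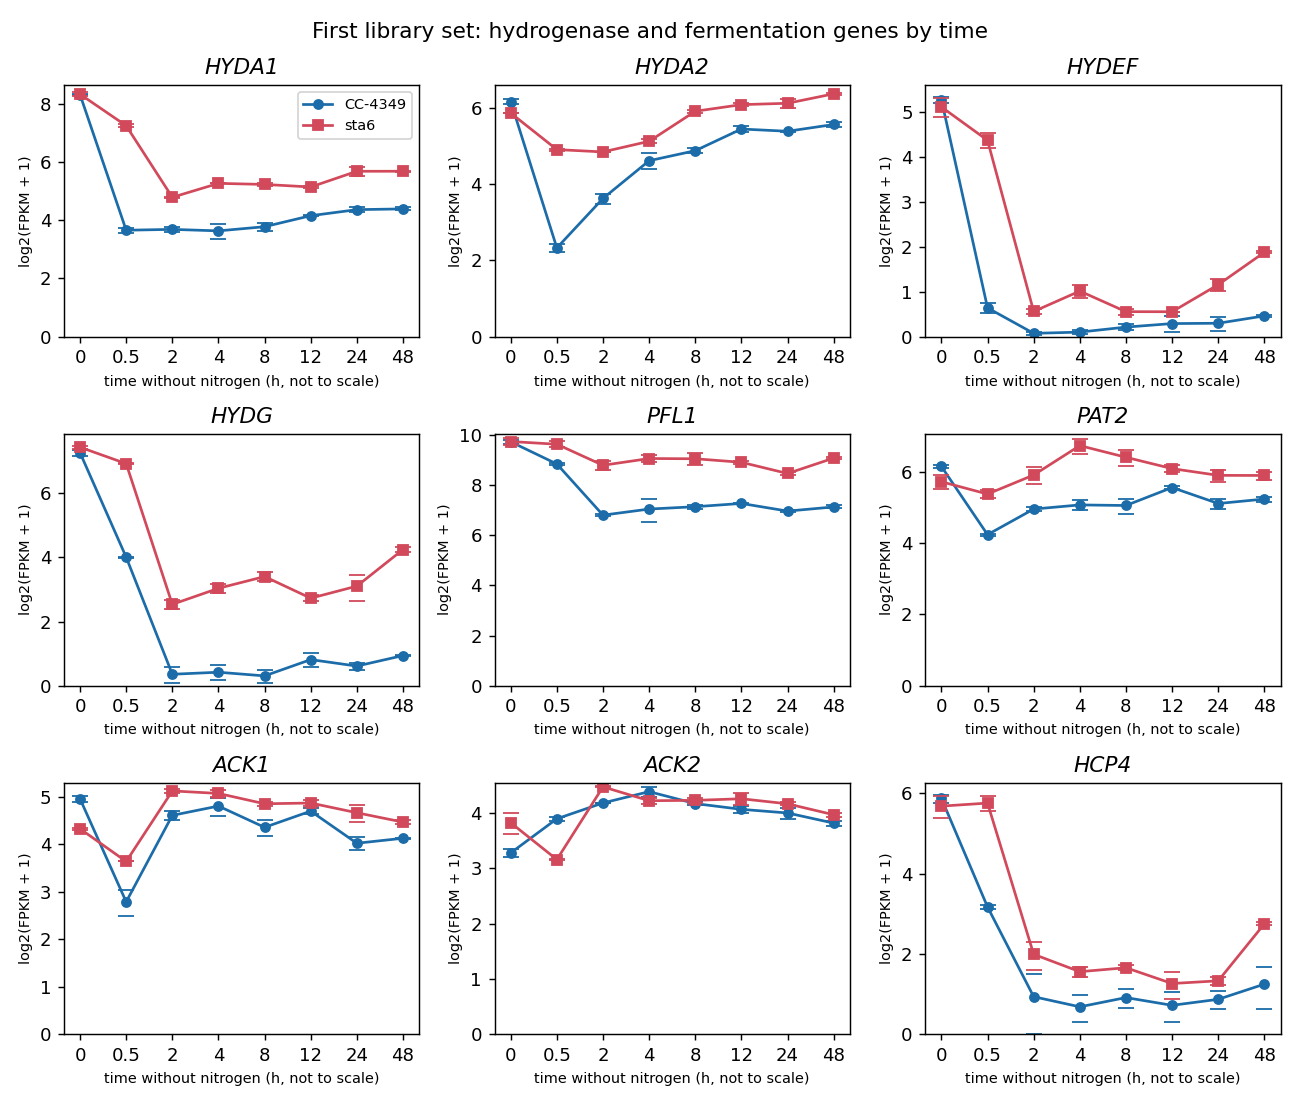
Levels of the 9 genes in the first library set, as log2(FPKM + 1) against time without nitrogen in hours (positions not to scale), in CC-4349 (circles) and sta6 (squares). Each symbol is 1 sample, the mean of its paired columns, and short dashes are the columns; HYDEF, HYDG and HCP4 lie near 0 from 2 h on in CC-4349, while in sta6 the drop comes between 0.5 and 2 h.

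HYDA1, the hydrogenase with the higher transcript level at 0 h, was at 316, 11.6, 11.9, 11.4, 12.7, 16.8, 19.6 and 19.95 FPKM over the 8 times in CC-4349. In sta6 it was at 319.6, 150.5, 26.6, 37.4, 36.5, 34.3, 50.3 and 50.3 FPKM. CC-4349 had thus reached its low level by 0.5 h and sta6 only by 2 h, and all later sta6 values lay above those of CC-4349. HYDA2, the other hydrogenase, was at 70.7, 4.03, 11.3, 23.5, 28.4, 42.5, 40.8 and 46.3 FPKM in CC-4349. Its sta6 values were 57.2, 29.0, 27.7, 33.9, 59.2, 66.8, 68.5 and 81.5 FPKM. HYDA2 was lowest at 0.5 h in CC-4349 and at 2 h in sta6, and from 8 h it exceeded its 0 h level in sta6 only.

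The assembly genes went lower than the hydrogenases they serve. HYDEF was at 37.5 FPKM at 0 h in CC-4349, at 0.56 FPKM at 0.5 h and between 0.0542 and 0.379 FPKM from 2 to 48 h. In sta6 it was at 33.4, 19.6 and 0.476 FPKM at 0, 0.5 and 2 h, and had reached 2.67 FPKM by 48 h. The lowest CC-4349 values rest on very few reads, with 2 and 1 reads in the paired columns at 2 h. HYDG was at 153, 15.1, 0.278, 0.336, 0.234, 0.756, 0.526 and 0.916 FPKM in CC-4349 and at 173, 120.9, 4.80, 7.21, 9.59, 5.63, 7.61 and 18.0 FPKM in sta6. From 2 h on the lowest sta6 value of HYDG was above the highest CC-4349 value. HYDG exceeded HYDEF in all 31 libraries, by a ratio of 1.46 to 35.0 and a median of 7.61, although the genes are immediate neighbours in the gene order of the v5.5 assembly.

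PFL1 stayed the most abundant of the 9 at every time and in both strains. In CC-4349 it was at 853.6, 461, 111, 132, 141, 154, 124 and 139.7 FPKM, and in sta6 at 859.9, 797, 445, 537, 533, 483.5, 354 and 543 FPKM. The strains did not overlap from 2 h on. PAT2, the acetyltransferase, was at 70.6 FPKM at 0 h and at 18.0 to 46.5 FPKM later in CC-4349, and at 52.2 FPKM at 0 h and 40.8 to 106.5 FPKM later in sta6. ACK1, the kinase gene next to PAT2 in the gene order, was at 30.1, 5.93 and 23.5 FPKM at 0, 0.5 and 2 h in CC-4349 and at 19.1, 11.5 and 34.0 FPKM in sta6. Both were therefore at their first-set low at 0.5 h in both strains. ACK2 kept within a narrow range, 8.72 to 19.9 FPKM in CC-4349 and 7.95 to 21.2 FPKM in sta6.

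HCP4 was at 57.6, 8.02, 0.917, 0.61, 0.889, 0.652, 0.833 and 1.38 FPKM in CC-4349. In sta6 it was at 50.3, 53.1, 2.98, 1.95, 2.16, 1.41, 1.52 and 5.74 FPKM. The sta6 library of 0.5 h was again close to 0 h, and no later value exceeded 5.74 FPKM in either strain. At 2 h, 5 of the 9 genes (HYDA1, HYDA2, HYDEF, HYDG and HCP4) were lower than at 0 h by more than 1 on the log2(FPKM + 1) scale in both strains. That condition held for 10.8% of 15108 genes, and since it is the contrast behind the choice of the genes, nothing is read from the count. None of the 9 was higher by that margin in both strains at any time, where 5.47% of genes were at 0.5 h, 20.1% at 2 h, 17.6% at 4 h, 19.3% at 8 h, 20.8% at 12 h, 19.9% at 24 h and 19.3% at 48 h. PFL1 lay just outside it, with log2 changes of -2.93 in CC-4349 and -0.95 in sta6. At 0.5 h the count of lower genes was 1, HYDA1 (2.68% of genes). It was 4, without HYDA2, at 4 h (9.25%), 8 h (7.90%), 12 h (8.06%) and 48 h (8.85%). At 24 h it was 5, with PFL1 in place of HYDA2 (8.82%).

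In the first set, a later change could be tested without the 0 h and 2 h libraries, as 24 and 48 h against 4 and 8 h. HYDA1 rose by 0.55 ± 0.10 (SE) on the log2 scale and HYDA2 by 0.73 ± 0.18, with limma adjusted p of 0.0174 and 0.03. ACK1 fell by 0.45 ± 0.13 (adjusted p = 0.0498, limma). These were 3 of 9 genes, where 17.0% of all 14795 genes passed (7.23% higher, 9.79% lower). HYDG, HYDEF and HCP4, with log2 differences of 0.43, 0.48 and 0.35, did not pass. With the first of the paired columns alone, or without the 4, 24 or 48 h libraries, 0 of the 9 passed, although HYDA1 stayed between 0.53 and 0.57 and HYDA2 between 0.47 and 0.83. Without the 4, 24 or 48 h libraries HYDEF was too low for the filter and was not tested. Without 24 or 48 h only 12 and 1 genes of the whole table passed. ACK1 lost its call in 11 of 12 alternatives, both other pseudocounts among them.

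The second set asked how the genes changed after the first 0.5 h in all 5 strains. Over the strains, the acetate pair PAT2 and ACK1 rose between 0.5 and 4 h and HYDA2 rose between 4 and 48 h. No change of the maturation genes or PFL1 was called. PAT2 was at 17.5, 14.2, 16.2, 49.6 and 21.3 FPKM at 0.5 h in STA6-C2, STA6-C4, STA6-C6, sta6 and CC-4349, and at 44.8, 60.4, 60.4, 86.9 and 21.5 FPKM at 4 h. The CC-4349 values were nearly equal, while each of the other strains was clearly higher at 4 h; over all strains the times overlapped, because sta6 was already high at 0.5 h. The log2 change over strains was 1.20 ± 0.28 (SE, n = 5 strains; adjusted p = 0.0109, limma). It ran from 0.01 in CC-4349 to 2.02 in STA6-C4.

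ACK1 was at 10.8, 7.20, 12.4, 27.5 and 8.88 FPKM at 0.5 h in the same order of strains, and at 31.8, 34.8, 37.7, 39.9 and 13.3 FPKM at 4 h. At 4 h CC-4349 was the lowest of the 5, and the sta6 value of 0.5 h was already near the 4 h level of the rescued strains. ACK1 rose by 1.24 ± 0.27 (SE; adjusted p = 0.00771, limma), also in 5 of 5 strains. PAT2 and ACK1 were 2 of 9 genes that passed, where 22.4% of 14982 genes did (12.7% higher, 9.73% lower). Leaving out 1 rescued strain ended calls while the changes stayed near the size given. PAT2 was at 1.17 without STA6-C2 (adjusted p = 0.0578, limma), at 0.99 without STA6-C4 (0.0782) and at 1.03 without STA6-C6 (0.0664). ACK1 was at 1.18 without STA6-C2 (adjusted p = 0.0543, limma) and at 1.02 without STA6-C4 (0.059). Without CC-4349, HYDA1 (log2 change 0.76, adjusted p = 0.0251 by limma) and HYDA2 (0.69, 0.0054) passed as well.

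**Figure D2:**
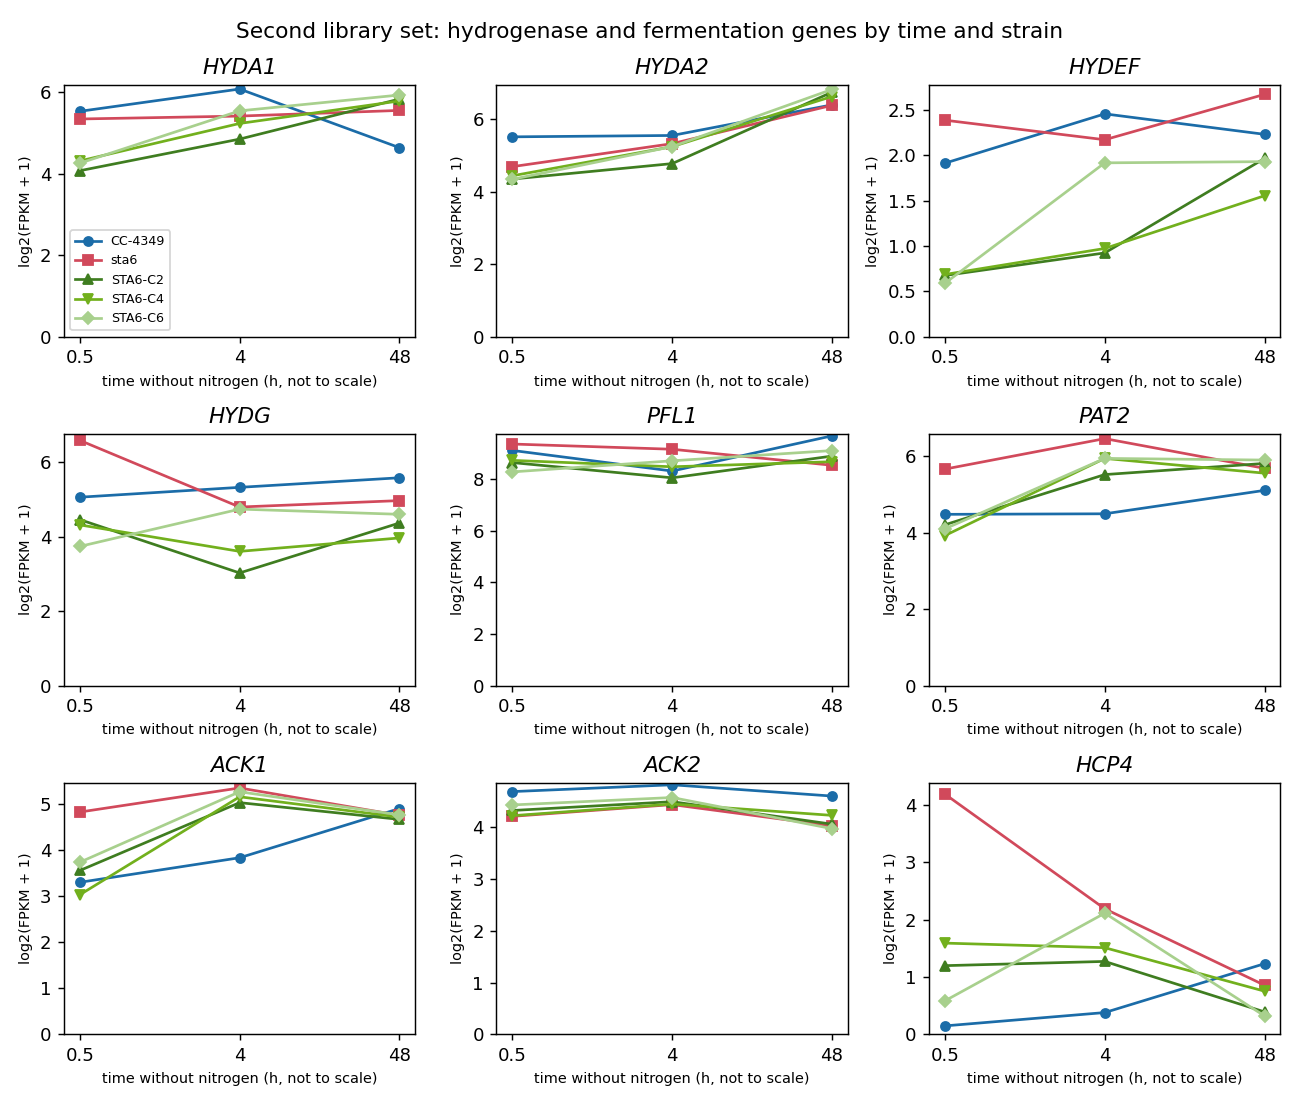
Levels of the 9 genes in the second library set, as log2(FPKM + 1) at 0.5, 4 and 48 h (positions not to scale); each point is 1 sample and each line 1 strain. PAT2 and ACK1 climb between 0.5 and 4 h, except that PAT2 is nearly level in CC-4349. HYDA2 climbs between 4 and 48 h in all 5 strains, and HYDA1 in CC-4349 drops between 4 and 48 h.

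HYDA2 was at 26.3, 36.8, 36.8, 39.0 and 45.8 FPKM at 4 h in STA6-C2, STA6-C4, STA6-C6, sta6 and CC-4349. At 48 h it was at 105.9, 97.4, 111.7, 82.2 and 82.9 FPKM in the same order. The times did not overlap, and the rescued strains were the highest at 48 h. HYDA2 rose by 1.36 ± 0.20 (SE; adjusted p = 0.000223, limma) in 5 of 5 strains, and this call held in all 11 alternatives, with adjusted p from 1.51e-05 to 0.00303. ACK2 fell from 20.6 to 27.2 FPKM at 4 h to 14.7 to 23.3 FPKM at 48 h, a change of -0.38 ± 0.10 (SE; adjusted p = 0.00693, limma) seen in 5 of 5 strains. Without STA6-C6 its adjusted p was 0.0518. These were 2 of 9 genes, where 51.7% of all genes passed (23.8% higher, 28.0% lower), so the share of the 9 was below that of the table.

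The other genes of the second set had no change that passed, although some moved the same way in every strain. HYDG went from 94.6 to 26.7 FPKM between 0.5 and 4 h in sta6 and from 12.3 to 25.6 FPKM in STA6-C6. Its log2 change over strains was -0.53 ± 0.35 (SE; adjusted p = 0.306, limma). PFL1 was lower at 4 h than at 0.5 h in 4 of 5 strains, by -0.28 ± 0.25 (SE; adjusted p = 0.443, limma). From 4 to 48 h it was higher in 4 of 5, by 0.43 ± 0.25 (SE; adjusted p = 0.16, limma), the exception being sta6, at 566.5 and 368.3 FPKM. That change passed without sta6 (0.70, adjusted p = 0.024, limma) and with quantile normalization (1.07, adjusted p = 0.00556). HYDEF was higher at 48 h than at 0.5 h in 5 of 5 strains, although neither step between the times passed. HYDA1 was higher at 4 h than at 0.5 h in 5 of 5 strains, by 0.72 ± 0.34 (SE; adjusted p = 0.154, limma). HCP4 was at 17.2 FPKM in sta6 at 0.5 h and at no more than 3.56 FPKM in any other second-set library.

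The 3 strain contrasts of the second set share libraries and are given side by side. HYDEF was lower in the rescued strains than in both sta6 and CC-4349, and HYDG was lower in them than in CC-4349. The acetate pair and HCP4 were higher in sta6 than in CC-4349, and ACK2 was lower in sta6 and in the rescued strains than in CC-4349. HYDEF was at 0.598, 0.61 and 0.506 FPKM in STA6-C2, STA6-C4 and STA6-C6 at 0.5 h. They were at 0.899, 0.964 and 2.78 FPKM at 4 h, then at 2.91, 1.94 and 2.81 FPKM at 48 h. The sta6 values were 4.24, 3.51 and 5.38 FPKM and those of CC-4349 were 2.77, 4.50 and 3.70 FPKM. At each time sta6 and CC-4349 were both above every rescued strain. HYDEF was higher in sta6 than in the rescued strains by 1.16 ± 0.22 (SE; adjusted p = 0.0281, limma), the 1 of 9 genes that passed where 0.741% of all genes did (0.354% higher, 0.387% lower).

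This call was lost without 0.5 h, 4 h, STA6-C2 or STA6-C4 and held without 48 h or STA6-C6, while the difference kept its direction. HYDEF differed by 0.88 without the 0.5 h libraries (adjusted p = 0.374, limma), by 1.30 without 4 h (0.104), by 1.14 without STA6-C2 (0.114) and by 1.08 without STA6-C4 (0.19). Rescued strains also differed from CC-4349 in HYDEF, by -0.95 ± 0.22 (SE; adjusted p = 0.0056, limma). In STA6-C2, STA6-C4 and STA6-C6, HYDG was at 20.9, 18.9 and 12.3 FPKM at 0.5 h. It was at 7.13, 11.1 and 25.6 FPKM at 4 h, then at 19.6, 14.6 and 23.2 FPKM at 48 h. In CC-4349 it was at 32.3, 38.9 and 46.7 FPKM and in sta6 at 94.6, 26.7 and 30.2 FPKM, above every rescued strain at the same time. The rescued strains differed from CC-4349 by -1.23 ± 0.36 (SE; adjusted p = 0.0191, limma). The difference of sta6 from the rescued strains, 1.36 ± 0.36, did not pass (adjusted p = 0.115, limma).

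ACK2 was at 24.7, 27.2 and 23.3 FPKM in CC-4349 at 0.5, 4 and 48 h, at 17.5, 20.6 and 15.3 FPKM in sta6. The rescued strains ranged from 14.7 to 22.8 FPKM. CC-4349 was above every other strain at each time. The difference was -0.40 ± 0.09 for the rescued strains (SE; adjusted p = 0.00488, limma) and -0.48 ± 0.11 for sta6 (SE; adjusted p = 0.00661, limma). HYDEF, HYDG and ACK2 were the 3 of 9 genes called between the rescued strains and CC-4349, where 32.4% of all genes were called (16.1% higher, 16.3% lower). HYDG did not pass without 4 h, 48 h, STA6-C2 or STA6-C4 (-1.08, -1.21, -1.16 and -1.17), HYDEF not without 0.5 h (-0.80), and ACK2 not without 4 h (-0.44). PAT2 (0.98) passed without 0.5 h, and HYDA1 (-1.09) and HYDA2 (-0.80) passed without 48 h.

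Between sta6 and CC-4349 of the second set, 4 of 9 genes passed, where 26.8% of all genes did (11.1% higher, 15.6% lower). PAT2 was at 49.6, 86.9 and 50.3 FPKM in sta6 and at 21.3, 21.5 and 33.4 FPKM in CC-4349, without overlap, a difference of 1.24 ± 0.34 (SE; adjusted p = 0.0153, limma). ACK1 was at 27.5, 39.9 and 26.1 FPKM in sta6 and at 8.88, 13.3 and 29.0 FPKM in CC-4349, which overlapped at 48 h, and it differed by 0.97 ± 0.33 (SE; adjusted p = 0.0456, limma). HCP4 differed by 1.82 ± 0.60 (SE; adjusted p = 0.0397, limma), on 1, 5 and 14 reads in CC-4349 against 173, 34 and 10 in sta6. ACK2 was the gene called lower in sta6, as given above. Without the 4 h libraries none of the 4 passed (PAT2 0.88, ACK1 0.69, HCP4 1.83, ACK2 -0.53), and without 0.5 h only PAT2 did, with HCP4 at 0.72. With a pseudocount of 5 HCP4 was at 0.89 (adjusted p = 0.0523, limma). HYDA1 differed by 0.02 ± 0.42, HYDG by 0.13 ± 0.44 and PFL1 by -0.02 ± 0.30 (SE), errors too wide to show that the strains were alike.

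The first set compared sta6 with CC-4349 at 8 times. In it 7 of the 9 genes were higher in sta6, the exceptions being the acetate kinases. HYDG had the widest difference, 2.34, with sta6 higher at 8 of 8 times; its values up to 2 h entered the choice of the genes, so this is a description. From 4 to 48 h alone, an alternative added after the values had been seen, HYDG differed by 2.69 ± 0.20 (SE). This too is a description. In CC-4349 HYDG and HYDEF stayed below 1 FPKM at these times, so both passed the filter through sta6 libraries alone. CC-4349 HYDG rested there on 1 to 17 reads per column. In these later libraries ACK1 was called higher in sta6 (0.38), and ACK2 was not called. In that fit 8533 genes of the whole table passed in either direction, against 6380 with all 8 times, so calls were common. Their split by direction is not given, so no count of the 9 is set against it. Over all 8 times PFL1 was higher by 1.48 ± 0.22 (adjusted p = 0.000736, limma) and HYDA1 by 1.42 ± 0.30 (adjusted p = 0.00414, limma), both at 8 of 8 times. HYDA2 (0.90), HYDEF (0.98), HCP4 (0.95) and PAT2 (0.84) were higher at 7 of 8 times, with adjusted p between 0.00782 and 0.0471 by limma. The time at which sta6 was not higher was 0 h for all 4 of them.

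The background of the first-set contrast was lopsided. Of 15108 genes 42.2% were called, 9.22% as higher in sta6 and 33.0% as lower, and the median gene differed by -0.25. With quantile normalization the median gene was at -0.04, 2160 genes were higher and 2440 lower, and 7 of the 9 genes again passed, with ACK1 (0.54, adjusted p = 0.0282, limma) in place of HYDEF (0.93, adjusted p = 0.0738). The value of 1 read hardly touches these differences: on a common value HYDG stayed at 2.34 and HYDA1 at 1.42, PFL1 came to 1.46 and HCP4 to 1.03. Between the paired columns of sta6, PFL1 and PAT2 were higher in the first at 8 of 8 times, by a median of 0.26 and 0.37 on the log2 scale, and both kept their call with either column alone. HYDEF was called in the data as deposited but lost its call in 12 alternatives, and without the 0.5 h libraries its difference was 0.59.

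At 0 h the strains of the first set hardly differed in HYDA1 (0.02), PFL1 (0.01) and HYDG (0.17), and PAT2 and ACK1 were lower in sta6, by -0.43 and -0.63. At 0.5 h the differences were at their widest for HYDEF (3.72), HYDA1 (3.59), HYDA2 (2.58) and HCP4 (2.58). From 2 to 48 h they ran from 1.92 to 3.31 for HYDG, from 1.50 to 2.02 for PFL1 and from 0.98 to 1.63 for HYDA1. The gap at 0.5 h in this set therefore went beyond the later one for the hydrogenases and HYDEF, but not for PFL1, at 0.79. It rests on 1 library per strain. In the second set at 0.5 h, HYDA1 and HYDA2 were lower in sta6 (39.4 and 24.8 FPKM) than in CC-4349 (45.1 and 44.6 FPKM). HYDEF and HCP4 were higher in sta6 there too.

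**Figure D3:**
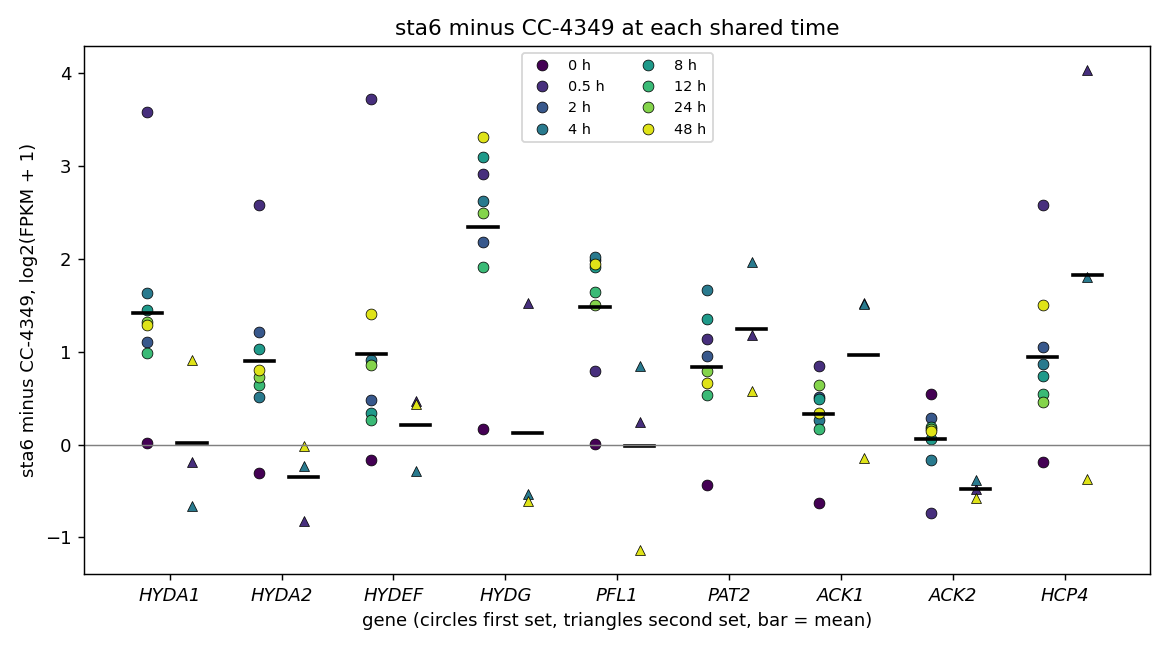
Difference between sta6 and CC-4349 in log2(FPKM + 1) at each shared time, for the first set (circles, 8 times) and the second set (triangles, 3 times); colours mark the time and bars the mean. HYDA1, HYDG and PFL1 have means well above 0 in the first set and near 0 in the second, whereas PAT2 is above 0 in both.

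The size of the strain difference was compared between the sets at their 3 shared times, a test added after the values had been seen. The first-set difference was larger by 2.82 ± 0.60 (SE) for HYDG (adjusted p = 0.0607, limma) and by 2.15 ± 0.68 for HYDA1 (adjusted p = 0.156, limma). No gene of the 9 passed, where 1.86% of all genes did (1.21% higher, 0.657% lower). This does not show that the sets were alike. Without 0.5 h HYDG passed (3.54, adjusted p = 0.0135, limma). For PAT2 the difference between the sets was -0.08 ± 0.47 (SE). PAT2 and HCP4 were the genes of the 9 called higher in sta6 in both sets, each set taken alone, but HCP4 passed in neither with a pseudocount of 5 (0.51 in the first, adjusted p = 0.073, and 0.89 in the second, adjusted p = 0.0523, limma).

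The strains also differed in how the genes changed with time. In these tests the sta6 and CC-4349 libraries, 1 per time, are assumed to vary as the rescued strains do. From 0.5 to 4 h, sta6 and the rescued strains differed in 0 of 9 genes, where 1.51% of all genes did (0.921% higher, 0.587% lower). This does not show that their changes were alike. From 0.5 to 48 h they differed in 4 of 9 genes, where 11.4% of all genes did (3.77% higher, 7.62% lower). PAT2 went from 49.6 to 50.3 FPKM in sta6 and from 14.2 to 17.5 FPKM to 46.0 to 58.6 FPKM in the rescued strains, a difference of -1.66 ± 0.28 (SE; adjusted p = 0.012, limma). The rescued strains started below sta6 and ended around it.

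ACK1 followed the same course, from 27.5 to 26.1 FPKM in sta6 and from 7.20 to 12.4 FPKM to 24.5 to 26.3 FPKM in the rescued strains (-1.35 ± 0.31, SE; adjusted p = 0.0268, limma). HYDA1 went from 39.4 to 45.8 FPKM in sta6 and from 15.8 to 18.8 FPKM to 53.9 to 59.8 FPKM in the rescued strains (-1.42 ± 0.30, SE; adjusted p = 0.0221, limma). HCP4 went from 17.2 to 0.812 FPKM in sta6 and from 0.501 to 2.01 FPKM to 0.25 to 0.686 FPKM in the rescued strains (-2.69 ± 0.55, SE; adjusted p = 0.0225, limma). For PAT2, ACK1 and HYDA1 the sta6 library of 0.5 h was above all rescued strains, and at 48 h it was within or below their range. All genes together had a median of -0.18 in this contrast, and -0.02 after quantile normalization.

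Between 4 and 48 h CC-4349 differed in its changes from the rescued strains in 4 of 9 genes, where 24.4% of all genes passed (16.4% higher, 8.05% lower), a contrast added after the values had been seen. The same contrast for sta6 was not tested. HYDA1 dropped from 66.3 to 23.9 FPKM in CC-4349 and went from 27.7, 36.5 and 45.4 to 55.7, 53.9 and 59.8 FPKM in the rescued strains (-2.08 ± 0.30, SE; adjusted p = 0.000849, limma). The HYDA1 value of CC-4349 was the highest of the 5 strains at 4 h and the lowest at 48 h. ACK1 went from 13.3 to 29.0 FPKM in CC-4349, while it was lower at 48 h than at 4 h in each rescued strain (1.50 ± 0.31, SE; adjusted p = 0.00594, limma). HYDA2 (-0.80, adjusted p = 0.0404, limma) and HCP4 (1.99, adjusted p = 0.0282, limma) were called too.

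The balance between the hydrogenase genes shifted with time in all strains. At 0 h the level of HYDA2 was 0.224 of that of HYDA1 in CC-4349 and 0.179 in sta6. By 48 h of the first set the ratio was 2.32 and 1.62, and at 48 h of the second set it was 1.79 to 3.48 in the 5 strains. At 0.5 h the sets differed: the ratio was 0.347 in CC-4349 and 0.193 in sta6 of the first set. In the second set it was 0.989 and 0.629 in these strains and 1.06 to 1.22 in the rescued strains. At 4 h of the second set it was 0.691 to 1.01, so the 48 h libraries did not overlap those of 4 h. FPKM is per length, so the ratio compares transcript levels, not reads. PAT2 exceeded ACK1 in all 31 libraries, by a ratio of 1.15 to 3.56.

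**Figure D4:**
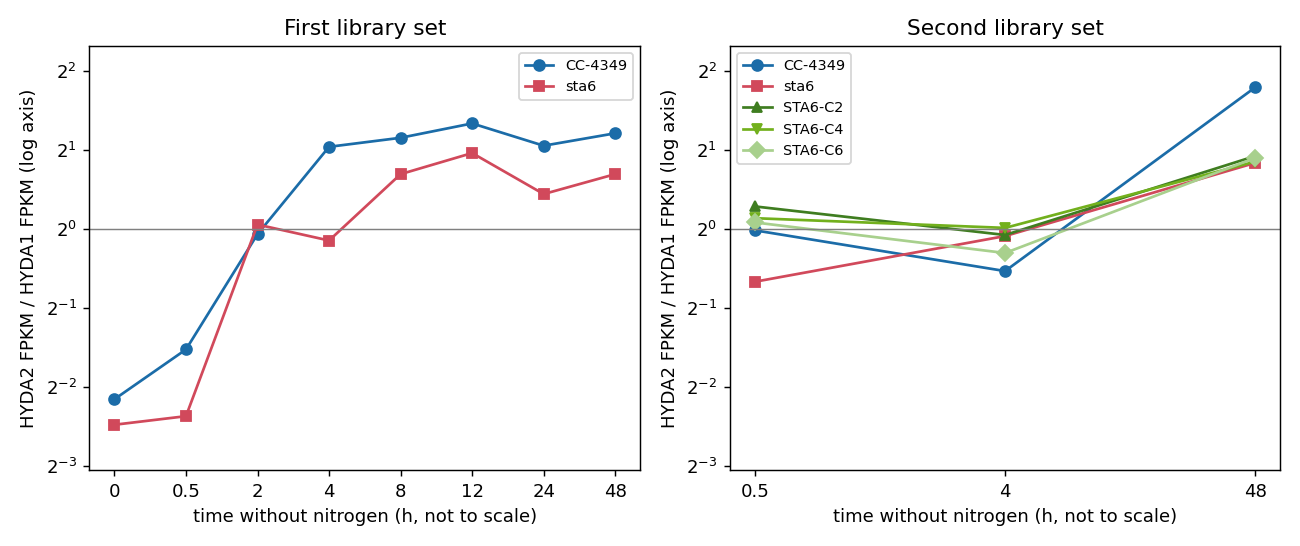
Ratio of the HYDA2 level to the HYDA1 level (FPKM, logarithmic axis) against time without nitrogen in hours (positions not to scale), first set on the left and second set on the right; each point is 1 sample. The ratio is at most 0.347 at 0 and 0.5 h in the first set and above 1 at 48 h in every strain of both sets. At 0.5 h in the second set it is 0.629 to 1.22.

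Likeness across the 31 libraries was measured as Pearson's r of log2(FPKM + 1) against the 10481 genes that reached 10 FPKM in any library. Libraries share strains and library sets, so r is a description. HYDG was most like PFL1 (r = 0.893), each ranking first for the other, followed by Cre06.g298350 (0.881) and HYDEF (0.858). HYDEF and HYDA1 ranked second for each other (r = 0.918). ACK1 had rank 5 for PAT2 (r = 0.833). HYDA2, ACK2 and HCP4 had no near partner among the 9. HYDA2 was not close to HYDA1 (r = 0.543, rank 701 of 10481). ACK2 ran most against HCP4 (r = -0.659), then HYDEF (-0.473) and HYDA1 (-0.449). In the gene order of the v5.5 assembly HYDEF adjoins HYDG and PAT2 adjoins ACK1, and 1 locus (Cre09.g396694) separates PAT2 from HYDA2.

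Of 5 further loci listed for the same pathways, 4 were in the table; they are given by ID, as the files and the reference do not name them. In the second set 1 of the 4 was higher at 4 h than at 0.5 h (12.7% of all genes) and 3 were lower at 48 h than at 4 h (28.0%). Cre11.g473950 was at 0.251 to 0.966 FPKM in CC-4349 and at 7.92 to 54.9 FPKM in sta6, a difference of 3.90 ± 0.58 (SE; adjusted p = 0.000322, limma). The rescued strains, at 1.61 to 25.6 FPKM, were above CC-4349 too, by 2.88 ± 0.48 (SE; adjusted p = 0.000529, limma), and their difference from sta6 did not pass (sta6 higher by 1.02, adjusted p = 0.386). In the first set the locus was at 0.269 to 1.87 FPKM in CC-4349 and 3.15 to 56.5 FPKM in sta6 (3.51 ± 0.44, SE; adjusted p = 0.000236, limma). CC-4349 and sta6 did not overlap in either set. Cre17.g700950 fell by 1.59 between 4 and 48 h of the second set, with an SE of 0.36 (adjusted p = 0.00314, limma), in 5 of 5 strains.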

How the data were processed

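The deposited table gives 1 value per gene in each of 47 columns, matched by name to the 31 samples. The authors' deposited values were taken as FPKM; the header states no unit, so they could also be RPKM. The submitters' processing notes name Bowtie. A version for it, the build, the annotation and the counting tool were each not given in the sources used here. Each first-set sample had a pair of columns, which were averaged. The labels do not say whether samples came from separate cultures.

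The 9 genes, the further loci and the tests were chosen with earlier results of these data known, and every gene of the list is reported. Values were tested as log2(FPKM + 1) by limma 3.58.1 (R 4.3.3), using its trend and robust options. Genes had to reach 1 FPKM in 3 or more of the libraries in a fit, as all 9 did in every comparison as reported. HYDEF did not in some alternatives of the late first-set contrast. Benjamini-Hochberg adjustment covered all genes tested, at a threshold of 0.05. The log2 scale with its pseudocount of 1 makes changes of low genes look smaller. Time contrasts had strain as a block and strain contrasts had time, as set by the design and not by replicate numbers. Differences of responses were interaction terms. The fits had 4 to 10 residual degrees of freedom and were tested on simulated data.

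The FPKM worth of 1 read was found from low genes, taking values up to 6 times the smallest within a relative tolerance of 0.02. For the 9 genes all values came to whole reads within 0.1 of a read, the largest distance being 0.00455. Total depth is unknown, and only depth relative to the median column is given. Neighbours were read from the RefSeq gene order of the v5.5 assembly. Other steps used Python 3.11.15, numpy 2.4.6, pandas 2.3.3 and matplotlib 3.10.9. Alternatives were pseudocounts of 0.1 and 5, no filter, quantile normalization, limma without its trend and robust options, either column of a pair, fits without the block, and fits lacking 1 strain or 1 time.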

Additional observations from a re-analysis of the deposited data

Results flagged for a closer look

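The time course of a gene differed between strains of the second set in 8 instances, by a limma test of the difference itself on the log2(FPKM + 1) scale. In these tests the lone sta6 or CC-4349 library of each time is assumed to vary as the rescued strains do. Between 0.5 and 48 h the change in sta6 minus that in the rescued strains was -1.42 for HYDA1, -2.69 for HCP4, -1.66 for PAT2 and -1.35 for ACK1. PAT2 held its call in all 8 alternatives. Without STA6-C4 the adjusted p of HYDA1 was 0.0593 (-1.50), and without STA6-C2 it was 0.0604 for ACK1 (-1.43) and 0.0634 for HCP4 (-2.78). HCP4 also lost its call with a pseudocount of 0.1 (-2.92, adjusted p = 0.0863, limma).

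Between 4 and 48 h the change in CC-4349 minus that in the rescued strains was -2.08 for HYDA1, 1.99 for HCP4, -0.80 for HYDA2 and 1.50 for ACK1. HYDA1 and ACK1 held their calls in all 8 alternatives. HYDA2 lost its call when any 1 of the rescued strains was left out (differences of -0.64 to -0.93, adjusted p of 0.0533 to 0.0798) and under limma without trend and robust fitting (0.0542). HCP4 lost its call without STA6-C2 (2.13, adjusted p = 0.0862, limma) and with a pseudocount of 5 (0.66, adjusted p = 0.0501), and ranged from 0.66 to 4.01 over the alternatives. HCP4 rests on 5 and 14 reads in CC-4349 at these times.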

How the results depend on the processing

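Across the alternatives, log2 differences of single genes kept their direction and side of the threshold in 956 instances, lost a call in 81, gained one in 15 and changed sign in 33; those 33 were uncalled both as reported and under the alternative. Without the replicate block (time), the genes called of the 9 fell from 1 to 0 for sta6 against rescued strains, from 3 to 0 for rescued strains against CC-4349, from 4 to 0 for sta6 against CC-4349 in the second set and from 7 to 2 in the first; all genes called were then 32, 1612, 1237 and 2316. Without strain as the block the second-set time counts stayed at 2. In the late first-set contrast the count was 0 with the first column of each pair and 1 with 12 h added. It was 1 for the response of sta6 from 0.5 to 4 h with a pseudocount of 5, and 1 between the sets with a pseudocount of 0.1 or quantile normalization.

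Leaving out 1 strain or time gave counts of 0 to 4 (reported as 2) from 0.5 to 4 h, 1 to 3 (2) from 4 to 48 h, 0 to 1 (1) for sta6 against rescued strains, 1 to 4 (3) for rescued strains against CC-4349, 0 to 4 (4) for sta6 against CC-4349 in the second set, 0 to 3 (3) for the late first-set contrast, 2 to 4 (4) for both differences of responses ending at 48 h and 0 to 1 (0) between the sets. Over all genes and alternatives, calls ranged from 1518 to 5248 (3363 as reported) from 0.5 to 4 h, 29 to 792 (111) for sta6 against rescued strains, 1612 to 6110 (4860) for rescued strains against CC-4349, 1237 to 6158 (4012) for sta6 against CC-4349, 1 to 4185 (2518) for the late first-set contrast, 27 to 331 (221) and 288 to 1745 (1670) for the responses of sta6 to 4 and 48 h, and 0 to 302 (281) between the sets. With sta6 and rescued libraries alone 538 genes were called. With the first column of each pair the late first-set contrast had 1005, and with quantile normalization the response of sta6 to 48 h had 1049.

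With quantile normalization the split of higher against lower calls went from 3560 and 4188 to 4708 and 3666 from 4 to 48 h, from 53 and 58 to 62 and 38 for sta6 against rescued strains, from 553 and 1117 to 640 and 409 for the response of sta6 to 48 h, and from 2438 and 1199 to 1920 and 1649 for that of CC-4349.

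Changed signs with quantile normalization were 0.0657 for PAT2 from 4 to 48 h, -0.0513 for HYDA1 in sta6 against CC-4349 of the second set, 0.103 for PFL1 in the late first-set contrast, 0.0698 for PFL1 in the response of sta6 to 4 h and 0.0493 for PAT2 between the sets. HCP4 was 0.244 from 0.5 to 4 h with a pseudocount of 0.1, and 0.178 between the sets with 5. ACK2 was -0.0849 in the first-set strain contrast with both sets in 1 fit. With the first column of each pair HCP4 was -0.0536 in the late contrast and PAT2 0.0672 between the sets.

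Leaving out 1 strain or time also changed signs. The ranges were -0.443 to 0.438 for HCP4 from 0.5 to 4 h, and -0.0898 to 0.515 for HYDA1 and -0.229 to 0.119 for PAT2 from 4 to 48 h. For sta6 against rescued strains they were -0.0451 to 0.666 for HYDA1 and -0.0551 to 0.276 for HYDA2. For rescued strains against CC-4349 they were -1.09 to 0.17 for HYDA1 and -0.0222 to 0.73 for ACK1. For sta6 against CC-4349 they were -0.426 to 0.362 for HYDA1, -0.57 to 0.498 for HYDG and -0.445 to 0.546 for PFL1 in the second set, and -0.00614 to 0.177 for ACK2 in the first. For the late first-set contrast they were -0.361 to 0.0299 for PFL1 and -0.103 to 0.795 for HCP4. In the response of sta6 they were -0.219 to 0.019 for HYDA2 and -0.293 to 0.217 for PFL1 to 4 h, and -0.055 to 0.177 for ACK2 to 48 h. HYDG in that of CC-4349 ranged from -0.593 to 0.146. Between the sets they were -1.19 to 0.471 for HCP4, -0.17 to 0.0229 for PAT2 and -0.0203 to 0.473 for ACK2. The cause of these changes was not tested.

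HCP4 had as few as 0 reads in a column, so its differences carry large counting error. The second set had 1 library per strain and time, so its strain contrasts treat times, and its time contrasts treat strains, as the replicates.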
